A study of Mus musculus with 8 samples.

Results

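The genes described here are 7 receptors of the SLAM (signalling lymphocytic activation molecule) family, Cd244, Cd48, Cd84, Slamf7, Slamf8, Slamf9 and Ly9, taken by their symbols from the 27998 genes of the count tables. They were measured in microglia of the mouse lumbar spinal cord by droplet-based 3′ single-cell RNA sequencing, in 8 libraries that each stand for 1 group. All mice were young adult C57BL/6 animals of both sexes that carried 1 Cx3cr1-creER-yfp allele. The 4 control groups had no floxed allele, and the 4 A20 cKO groups were Tnfaip3 fl/fl, so that the inducible Cre expressed from Cx3cr1 could delete Tnfaip3, the gene of the ubiquitin-editing protein A20, after tamoxifen. The study's methods place tamoxifen before all experiments and do not name the control mice separately. Each genotype was sampled naive and on days 1, 2 and 3 after bilateral transection of the sciatic nerve. The cells were sorted as YFP-positive, and the cords of 3 animals were pooled into each library, so animals cannot be told apart.

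SLAM receptors are small immunoglobulin-domain proteins of blood cells. Most of them bind a copy of themselves on a neighbouring cell, whereas CD244 (2B4) binds CD48, a lipid-anchored protein without a cytoplasmic tail. The tails of several members carry tyrosine motifs that recruit the adaptors SAP (Sh2d1a) and EAT-2 (Sh2d1b1), and without adaptors they can bind phosphatases. CD244 is best known from natural killer (NK) cells, CD84 from platelets, B cells and myeloid cells, and SLAMF8 and SLAMF9 from macrophages and dendritic cells.

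The members were selected on measured values, namely their CPM and their share of cells in the 8 libraries, inside and outside cells with Mki67 or Top2a transcripts. Every value below is therefore a description, and with 1 library per group no test between groups was possible. Levels are sums of unique molecular identifiers (UMIs, one per captured transcript) over the cells kept, given per 1000000 UMIs of that library (CPM). Intervals are 95% intervals, exact Poisson for levels, Clopper-Pearson for shares of cells and exact conditional for ratios, and they cover counting error only, not the difference between animals.

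Of 14883 barcodes, 14626 were kept, 558 to 3585 a library, with 1620481 to 15817426 UMIs and a median of 2780 to 4274 UMIs per cell. Of the microglial markers, Tmem119 was found in 96.2% of cells or more and P2ry12 in 90.1% or more, whichever the library, whereas Fcrls ranged from 26.7% to 97.6%. Control day 3 and the 4 A20 cKO libraries shared barcodes with each other (256 shared barcodes in 10 library pairs), against 98 in the 15 pairs between these 5 and the other 3 libraries and 27 in the 3 pairs among those 3. The 5 are called the linked libraries below. Ttr, a choroid plexus transcript, had 0 UMIs in control naive, day 1 and day 2 and 126 to 397 CPM in the other 5. Comparisons that cross this split are named as such, because the split and the group cannot be told apart there. The 3′ level of Tnfaip3 lay between 6.83 and 25.3 CPM in the controls, lowest on day 2, and between 42.3 and 67.7 CPM in the A20 cKO libraries. The sources used here do not place the floxed part under these 3′ reads, so this level does not check the deletion.

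All members lie on chromosome 1 within 1.03 Mb, in the order Cd244, Ly9, Slamf7, Cd48, Cd84, Slamf9 and Slamf8 (GRCm38, GENCODE M21). Cd244, named Cd244a in that annotation, spans chr1:171559193-171609746 on the plus strand, and Ly9 (chr1:171588624-171607410, minus strand) lies wholly inside it. Whether the counting used strand is not given in the sources used here, so reads in the 18787 bases that both genes cover are uncertain between them. Slamf7 (chr1:171632403-171653035) and Slamf8 (chr1:172581758-172590568) are on the minus strand, and Cd48 (chr1:171682009-171705258), Cd84 (chr1:171839697-171890718) and Slamf9 (chr1:172475358-172478575) on the plus strand. The map of the cluster shows a gap of 522 kb between Slamf6 and Slamf9.

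**Figure D1:**
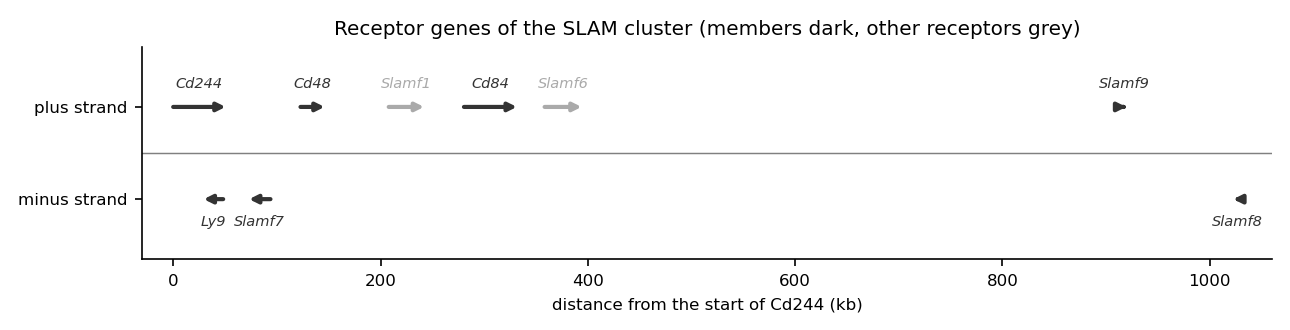
Positions of 9 receptor genes as distance in kb from the start of Cd244, with arrows pointing in the direction of transcription, above the line for the plus and below it for the minus strand. The 7 members are dark, Slamf1 and Slamf6 grey, and Ly9 lies between 29.4 and 48.2 kb, inside Cd244.

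Upstream sequences were available for 6 of the 7 members (RefSeq, GRCm38.p6), and those of 4 are printed because these members had the clearest patterns between libraries (Cd244, Slamf8) or stayed within narrow ranges (Cd84, Slamf9). Each is the 250 bases before the RefSeq transcription start, 5′ to 3′ on the strand of the gene. Capitals mark an AP-1 motif (TGANTCA), an E-box (CACGTG) or an interferon-stimulated response element (ISRE, TTTC and again TTTC with 2 bases of any kind between). The windows are chr1:171558943-171559192 (plus) for Cd244, chr1:172590569-172590818 (minus) for Slamf8, chr1:171839447-171839696 (plus) for Cd84 and chr1:172475110-172475359 (plus) for Slamf9.
Cd244: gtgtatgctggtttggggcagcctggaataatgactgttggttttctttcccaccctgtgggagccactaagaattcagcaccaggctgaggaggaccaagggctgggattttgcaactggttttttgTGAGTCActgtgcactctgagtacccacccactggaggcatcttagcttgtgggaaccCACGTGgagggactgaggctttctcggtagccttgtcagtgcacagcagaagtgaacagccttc
Slamf8: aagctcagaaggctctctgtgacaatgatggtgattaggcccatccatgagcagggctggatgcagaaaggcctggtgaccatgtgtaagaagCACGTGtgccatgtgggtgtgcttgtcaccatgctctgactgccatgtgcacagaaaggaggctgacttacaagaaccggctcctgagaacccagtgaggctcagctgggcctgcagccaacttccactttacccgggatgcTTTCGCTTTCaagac
Cd84: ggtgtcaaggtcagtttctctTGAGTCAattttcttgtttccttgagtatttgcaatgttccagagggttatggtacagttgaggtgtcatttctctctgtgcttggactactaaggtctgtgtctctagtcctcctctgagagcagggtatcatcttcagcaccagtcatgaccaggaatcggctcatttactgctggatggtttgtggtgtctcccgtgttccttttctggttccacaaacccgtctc
Slamf9: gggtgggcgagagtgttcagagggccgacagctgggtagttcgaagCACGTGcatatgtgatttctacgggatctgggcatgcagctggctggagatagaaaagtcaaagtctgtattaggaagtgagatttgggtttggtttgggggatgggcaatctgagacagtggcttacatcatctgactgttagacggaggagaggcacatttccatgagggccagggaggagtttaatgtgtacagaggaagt
The search covered both strands of 300-base windows that run on to 50 bases after the start, and no matches overlapped in these genes. Cd244 held 1 AP-1 motif that began 122 bases and 1 E-box that began 64 bases before the start. Slamf8 held an E-box 157 bases and an ISRE 15 bases before the start, and after it an AP-1 motif at 9 bases and a kappaB motif at 36 bases. Slamf7 and Cd84 held 1 AP-1 motif each, Slamf9 held 1 E-box, and Cd48 held none of the 5 motifs searched, which also included GAS (TTCNNNGAA). Among all 32851 such windows, 7.81% held the AP-1 motif, 7.15% the E-box, 3.44% the ISRE, 8.30% GAS and 4.51% kappaB. The motifs were chosen with the sequences in view, and a match is a description of letters, not of binding.

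Cd244 was the member whose level differed most between libraries. The control libraries held 6 Cd244 UMIs when naive (3.70 CPM, 1.36 to 8.06), then 728 at day 1 (51.8 CPM, 48.1 to 55.7), 1722 at day 2 (109 CPM, 104 to 114) and 689 at day 3 (94.6 CPM, 87.6 to 102). The A20 cKO libraries held 298 when naive (33.4 CPM, 29.7 to 37.4), then 314 at day 1 (104 CPM, 92.5 to 116), 339 at day 2 (112 CPM, 100.2 to 124) and 195 at day 3 (76.7 CPM, 66.3 to 88.3). Both naive libraries lay below every injured library, and control naive lay far below A20 cKO naive. How many of all genes have both naive libraries lowest was not counted. In the order of levels, control naive, A20 cKO naive, control day 1 and A20 cKO day 3 were each set apart from the next by more than counting error. Control day 3, A20 cKO day 1, control day 2 and A20 cKO day 2 formed a top group in which no neighbours were separated.

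Set against control naive, the log2 ratio of Cd244 was 3.69 (2.68 to 5.26) for day 1. For day 2 it was 4.76 (3.75 to 6.33). These compare with a median gene at -0.13 and -0.12, so that the ratios relative to the median gene were 3.82 and 4.88. On day 3, across the split, the ratio was 4.56 (3.55 to 6.13). The breadth of these intervals comes from the 6 UMIs of control naive. From day 1 to day 2 of the controls, both outside the linked libraries, it was higher by 1.07 (0.95 to 1.20). Day 3 was lower than day 2 by a ratio of -0.20 (-0.33 to -0.08), again across the split.

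The A20 cKO series lies wholly within the linked libraries. There Cd244 exceeded its level in A20 cKO naive by 1.63 (1.40 to 1.87) in the day 1 library. The day 2 library exceeded it by 1.74 (1.51 to 1.97) and the day 3 library by 1.20 (0.93 to 1.46). Cd244 was the only one of the 6 members with at least 100 UMIs in both libraries together that passed 2-fold upwards in the comparisons of an injured with a naive library, and no member passed 2-fold downwards. Over all genes with that depth, 3.82%, 5.92% and 8.76% were at least 2-fold higher in control day 1, 2 and 3 and 1.56%, 2.86% and 1.92% in A20 cKO day 1, 2 and 3. The shares at least 2-fold lower were 7.25%, 6.28% and 2.32% for the control days, against 1.39%, 2.65% and 2% for the A20 cKO days, so that few or none of 6 genes would be lower at those shares. From control day 1 to day 2 the share higher was 3.8%. The 3 days share their naive library in each genotype, so their ratios are not independent of each other.

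Between genotypes, the naive libraries differed by 3.06 (2.03 to 4.63), with A20 cKO higher, in a comparison across the split in which 7.43% of all genes were at least 2-fold higher. On day 1 A20 cKO was higher by 1.00 (0.81 to 1.19, also across the split, 15.5% of all genes), which is 0.80 relative to a median gene at 0.20. The day 2 libraries differed by 0.04 (-0.13 to 0.21), also across the split. Within the linked libraries, A20 cKO day 3 lay below control day 3 at -0.30 (-0.54 to -0.07), and A20 cKO naive lay below control day 3 at -1.50 (-1.70 to -1.30). In the last comparison 1.49% of all genes were at least 2-fold lower.

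**Figure D2:**
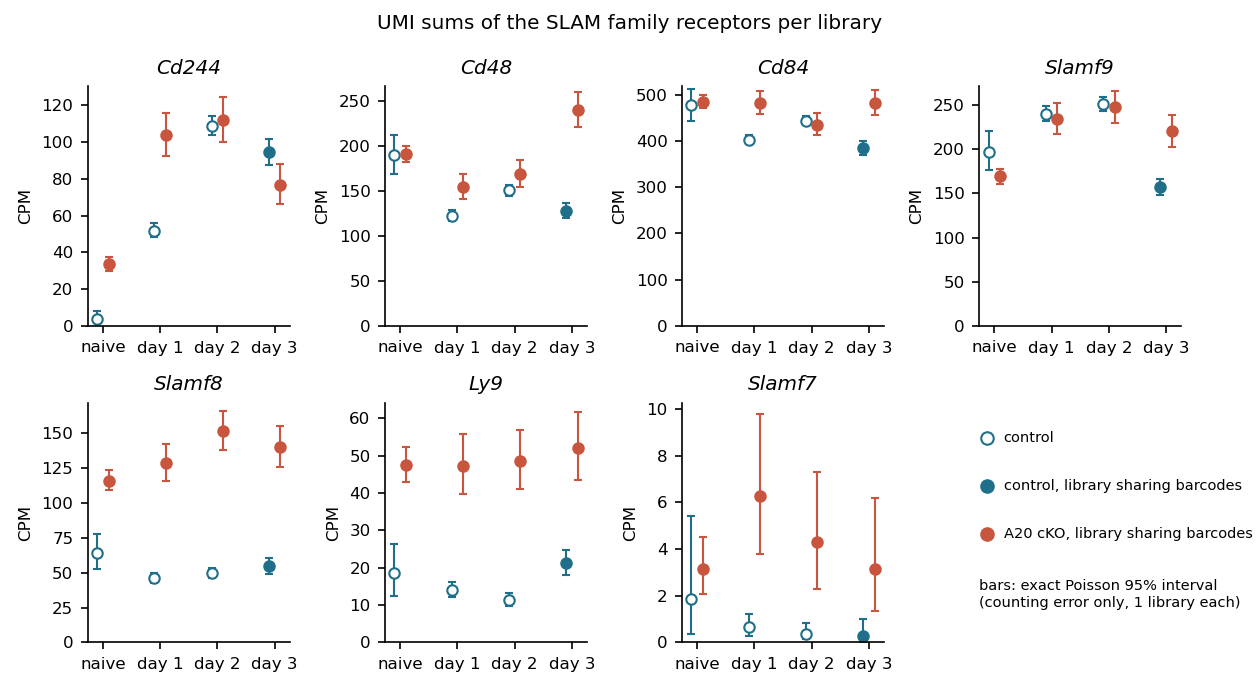
CPM of each member (vertical axes, from 0) in the naive, day 1, day 2 and day 3 libraries, blue for control and red for A20 cKO, with filled points for the 5 libraries that share barcodes and exact Poisson 95% intervals as bars. Cd244 is lowest in both naive libraries, at 3.70 and 33.4 CPM, while Slamf8 and Ly9 lie higher in every A20 cKO library than in every control library. How many of all genes do so was not counted.

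The cells that held Cd244 transcripts were numerous, and each held few. A UMI was found in 1.06% of control naive cells, 17.6%, 33.2% and 21.8% of control day 1, 2 and 3 cells, and 8.08%, 24.4%, 32.8% and 25.1% of A20 cKO naive, day 1, 2 and 3 cells. With each cell thinned to 2000 UMIs, which left out 20 to 310 shallower cells a library, the shares were 0.598% (0.123 to 1.74), 8.93% (7.97 to 9.97), 17.7% (16.4 to 19.0) and 14.0% (12.4 to 15.6) in the controls. In A20 cKO they were 5.70% (4.85 to 6.66), 17.7% (15.2 to 20.5), 18.1% (15.1 to 21.3) and 12.6% (9.95 to 15.7). No cell held more than 9 Cd244 UMIs, and between 64.8% and 81.6% of the positive cells of the 7 libraries other than control naive held a single one. Of 29 kept cells with no UMI of P2ry12, Tmem119, Csf1r or Cx3cr1, 0 had a Cd244 UMI, so that positive cells could still make up 10.3% by a limit of 3 counts, or 11.9% by the Clopper-Pearson bound. Their median depth was 1355 UMIs against 3532 for all kept cells.

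Since CD244 is an NK cell receptor, the NK list (Ncr1, Klrb1c, Nkg7, Gzma, Prf1) was set beside it. Its summed level was 0 in control naive and day 1, 12.9 CPM in control day 2 and 0.330 to 0.549 CPM in the linked libraries. In control day 2, Gzma had 147 UMIs and Nkg7 48, but Ncr1 and Klrb1c had 4 each, and 1 cell held 106 of the 204 UMIs of the list. The 97 cells with any of these UMIs held 49 of the 1722 Cd244 UMIs of that library. Without them the ratio of control day 2 to control naive was 4.77. The T cell list came to 1.32 to 4.41 CPM with Cd3e at 0 in all 8 libraries, and the B cell list to 21.2 to 51.1 CPM with Ms4a1 and Pax5 at 0. Lck gave most of the T cell sum, with 4 to 60 UMIs a library. Nearly all of the B cell sum came from Cd79b, which was found in 8.78% to 19.6% of cells. Neutrophil transcripts (0 in control naive, day 1 and day 2, and 20.5 to 35.0 CPM in the linked libraries) and the monocyte list (2.21 to 3.70 against 27.0 to 86.0 CPM) followed the library split, and their part in the comparisons across it was not tested. Most of the monocyte sum in the linked libraries was Plac8, at 90 to 286 UMIs a library. Ccr2, of the same list, had 1 to 17 UMIs in each of the 8 libraries.

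Cells under a barcode seen in more than 1 library held 1.10% to 2.01% of the Cd244 UMIs in the control libraries with injury and in A20 cKO naive, and 8.28%, 2.65% and 3.59% in A20 cKO day 1, 2 and 3. Without those cells, the ratio to the naive library was 3.66, 4.75 and 4.54 for the control days and 1.67, 1.74 and 1.19 for the A20 cKO days, in order. The naive libraries then differed by 3.03.

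**Figure D3:**
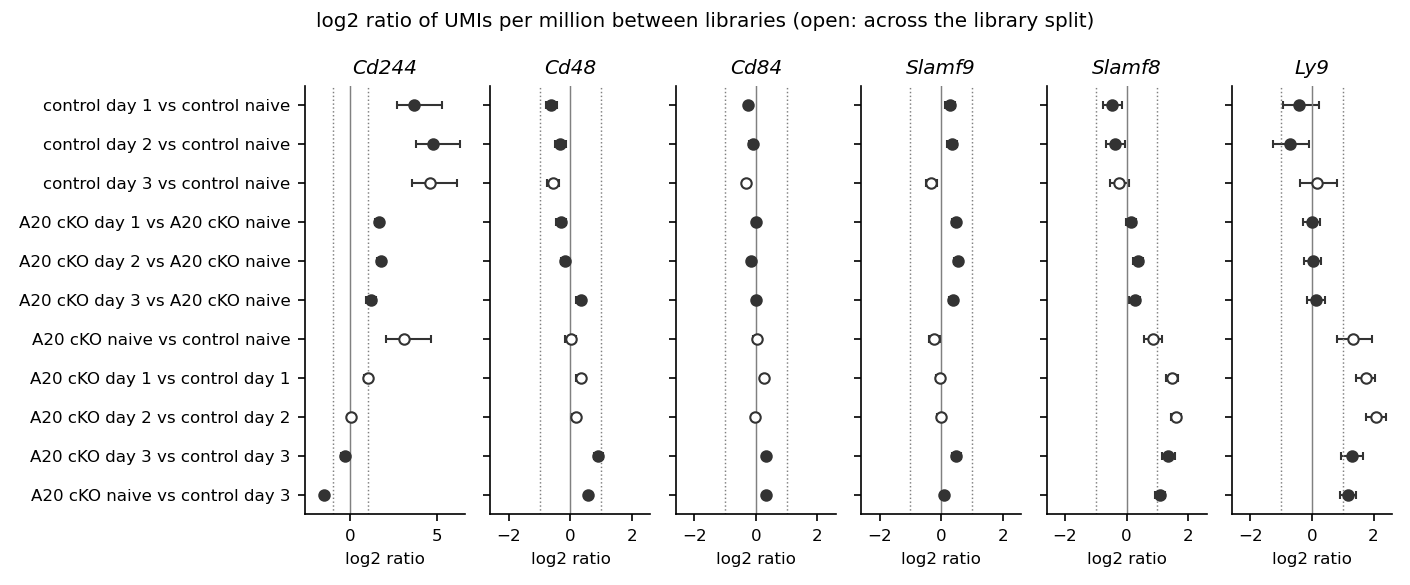
Log2 ratios (horizontal axes) of 6 members for 11 library comparisons (rows), with exact conditional 95% intervals, dotted lines at 2-fold, open points for comparisons across the library split and filled points for those within it. Cd244 lies past 2-fold in all 6 comparisons of an injured with a naive library, and Slamf8 and Ly9 lie past it in A20 cKO day 3 against control day 3, at 1.36 and 1.30.

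The study concerns microglial proliferation after nerve injury, so Cd244 was compared between cells with and without a UMI of Mki67 or Top2a, transcripts of dividing cells. Such cells were 0.528%, 1.93%, 46.7% and 21.2% of control naive, day 1, 2 and 3 and 6.50%, 8.46%, 27.6% and 16.1% of the A20 cKO libraries, and in each library they were deeper than the rest. In control day 1 Cd244 stood at 44.9 CPM inside and 52.0 CPM outside such cells, a log2 ratio of -0.17 (-1.03 to 0.50), with thinned shares of 4.76% and 9.01%. In control day 2 it stood at 114 CPM inside and 102 CPM outside them, a log2 ratio of 0.16 (0.02 to 0.30). In control day 3 it stood at 115 CPM inside and 87.1 CPM outside, a ratio of 0.40 (0.16 to 0.63), which was close to 0 (-0.0019) when cells with core G2/M transcripts were set against the rest. In the A20 cKO libraries the levels inside and outside were 36.9 and 33.1 CPM (naive), 86.2 and 106 CPM (day 1), 99.6 and 118 CPM (day 2) and 72.5 and 77.8 CPM (day 3), and each interval of the ratio held 0. Leaving out all cells with Mki67 or Top2a UMIs, the ratio of control day 2 to naive was 4.66 and that of A20 cKO day 2 to naive 1.84. No tested member passed 2-fold between these cells and the rest in control day 2 or day 3, where 2.13% and 3% of all genes were at least 2-fold higher inside and 0.0111% and 0.168% at least 2-fold lower.

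A second grouping used other cell cycle genes. Cells with at least 3 of 12 core S genes (Mcm2 to Mcm7, Pcna, Gins2, Uhrf1, Hells, Dtl, Clspn) and fewer than 3 of 18 core G2/M genes were called core S, and those with at least 3 core G2/M genes core G2/M. Cd244 stood at 65.2 CPM in the 385 core S cells and 49.4 CPM in the cells of neither class on control day 1 (log2 ratio 0.40, 0.12 to 0.67). On day 2 it stood at 133 against 96.4 CPM (0.46, 0.27 to 0.65) and on day 3 at 153 against 87.1 CPM (0.82, 0.50 to 1.12). In core S cells without a UMI of Mki67 or Top2a these ratios were 0.41, 0.58 and 0.81. At 2000 UMIs per cell, Cd244 was found in 12.2%, 20.5% and 26.9% of core S cells and in 8.47%, 16.1% and 12.5% of the others on control day 1, 2 and 3. The A20 cKO ratios were 0.46 (-0.29 to 1.07) for the naive library, 0.35 (-0.10 to 0.76) for day 1, 0.12 (-0.37 to 0.56) for day 2 and 0.19 (-0.46 to 0.75) for day 3, from 58 to 112 core S cells a library. All 4 were above 0, but counting error could not separate any of them from 0 at these cell numbers, and on day 3 the ratio was -0.22 in the core S cells without Mki67 or Top2a UMIs. In core G2/M cells of control day 2 the ratio was 0.29 (0.13 to 0.44), and in those of control day 3 it was 0.12 (-0.23 to 0.44). In the 24 core G2/M cells of A20 cKO day 1, with 6 Cd244 UMIs, it was -1.05 (-2.62 to -0.02).

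**Figure D4:**
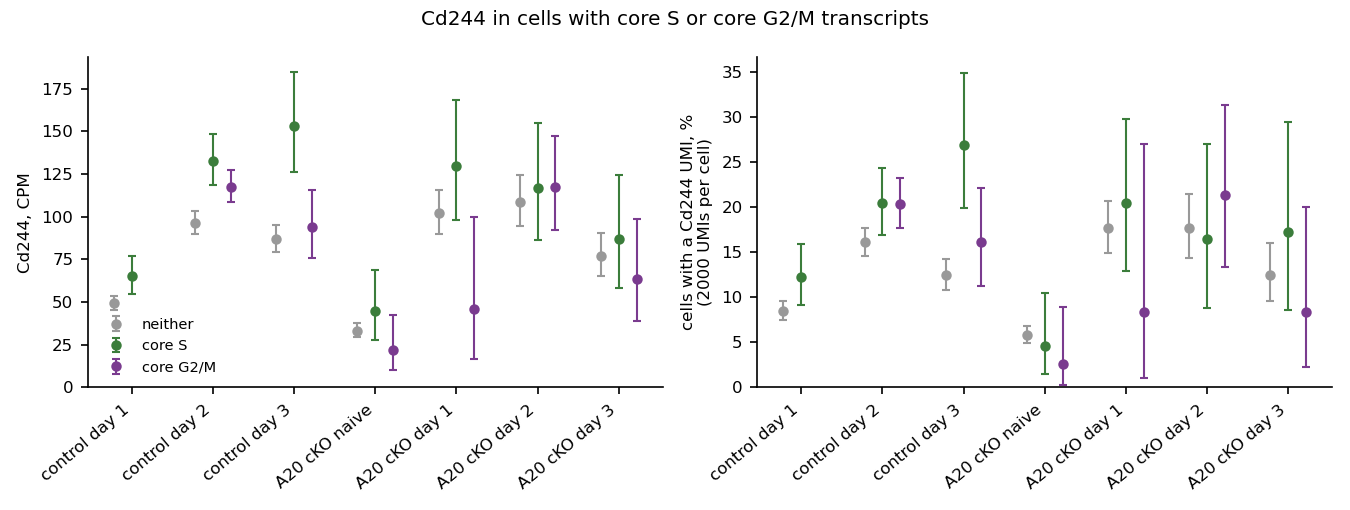
Level of Cd244 in CPM (left) and share of cells with a Cd244 UMI at 2000 UMIs per cell in percent (right) in 7 libraries, for cells of core S (green), core G2/M (purple) and neither class (grey), with exact 95% intervals; classes under 20 cells are left out. The core S points stand above the grey ones in control day 1, 2 and 3, most on day 3 at 153 against 87.1 CPM.

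Cd48 encodes the ligand of CD244. In order of time its level was 189, 122, 151 and 128 CPM in the controls, against 191, 154, 169 and 240 CPM in the A20 cKO libraries. The naive libraries of the genotypes could not be told apart (log2 ratio 0.01, -0.17 to 0.19, across the split). All injured control libraries lay below control naive, at -0.63 (-0.81 to -0.45), -0.33 (-0.50 to -0.15) and, across the split, -0.57 (-0.75 to -0.38). Relative to the median gene the first 2 were -0.50 and -0.21. In A20 cKO days 1 and 2 lay below naive, at -0.31 and -0.17, but day 3 lay above it at 0.33 (0.19 to 0.46). A20 cKO day 3 was the highest library and differed from control day 3 by 0.91 (0.76 to 1.05), within the linked libraries, or 1.02 relative to a median gene at -0.12. In the controls Cd244 was lowest in the library where Cd48 was highest, but among the injured controls both were highest on day 2. Over the 8 libraries the Pearson correlation of Cd244 with Cd48 was -0.30.

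Cd84, which binds itself, was found in 69.2% to 83.1% of cells and varied least. Its levels were 477, 403, 444 and 385 CPM over time in the controls, with 485, 482, 435 and 483 CPM in A20 cKO, a factor of 1.26 between the lowest and the highest library. Among the 6 highest libraries, counting error did not separate any neighbours. In cells with Mki67 or Top2a UMIs Cd84 was lower than in the rest, with intervals below 0 in 5 libraries, at -0.18 in control day 2, -0.16 in control day 3 and -0.37, -0.43 and -0.44 in A20 cKO naive, day 2 and day 3.

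Slamf9, a receptor of macrophages with a short tail, stood at 197, 240, 251 and 158 CPM in the controls and 169, 234, 248 and 220 CPM in A20 cKO. Day 1 and day 2 of both genotypes held the highest levels, between 234 and 251 CPM, and counting error did not separate any neighbours from control naive through A20 cKO day 3 up to these 4. Control naive was separated from A20 cKO naive, the next below. Against naive, A20 cKO was higher by 0.47 (0.34 to 0.60), 0.55 (0.42 to 0.68) and 0.38 (0.24 to 0.52) on day 1, 2 and 3, and control by 0.28 (0.12 to 0.45) and 0.34 (0.18 to 0.51) on day 1 and 2. Control day 3 was the lowest library, not separated from A20 cKO naive, and lay at -0.33 (-0.51 to -0.14) against control naive, across the split.

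Slamf8, which like Slamf9 lacks the adaptor-binding motifs of the larger receptors, was higher in every A20 cKO than in every control library. The controls held 64.2, 46.2, 49.5 and 54.6 CPM in order of time, whereas the A20 cKO libraries held 116, 128, 151 and 140 CPM. How many of all genes have ranges set apart in this way was not counted. Control naive, day 1 and day 2 also differ from the A20 cKO libraries by the library split. Within the linked libraries A20 cKO day 3 was higher than control day 3 by 1.36 (1.15 to 1.57), and A20 cKO naive was higher than control day 3 by 1.09 (0.92 to 1.26). Across the split the ratio was 0.85 (0.56 to 1.16) when naive, 1.48 (1.29 to 1.66) on day 1 and 1.61 (1.44 to 1.78) on day 2. At 2000 UMIs per cell it was found in 9.15% to 10.96% of control and in 17.7% to 25.6% of A20 cKO cells. In A20 cKO naive its level was 207 CPM in the 112 core S cells against 111 CPM in cells of neither class (0.90, 0.58 to 1.20), and on A20 cKO day 2 it was 229 against 138 CPM (0.74, 0.39 to 1.08). On A20 cKO day 1 and day 3 the core S ratio was -0.09 and -0.37, with intervals that held 0, so a higher core S level was not seen in every A20 cKO library. In A20 cKO naive Slamf9 was also higher in core S cells, at 280 against 162 CPM (0.80, 0.52 to 1.05). Counting error did not separate Slamf9 between these classes in any other library.

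Ly9, a receptor that binds itself, was likewise lower in every control than in every A20 cKO library. Here too, the share of all genes set apart in this way was not counted. The controls held 18.5, 14.2, 11.4 and 21.1 CPM and A20 cKO held 47.4, 47.2, 48.5 and 51.9 CPM in A20 cKO, where the 4 libraries could not be told apart. A20 cKO day 3 was higher than control day 3 by 1.30 (0.95 to 1.64), and A20 cKO naive was higher than control day 3 by 1.16 (0.90 to 1.44). Across the split the ratios were 1.34 (0.82 to 1.94) when naive, 1.74 (1.42 to 2.06) on day 1 and 2.09 (1.77 to 2.41) on day 2. Slamf8 and Ly9 were the 2 of 6 tested members at least 2-fold higher in A20 cKO day 3 than in control day 3, where 1.86% of all genes were. The share of all genes was 0.964% for A20 cKO naive against control day 3, and 10.7% for day 2 between genotypes. The level of Ly9 did not follow that of Cd244, inside which it lies: Ly9 was 11.4 CPM in control day 2 and 18.5 CPM in control naive, where Cd244 was 109 and 3.70 CPM.

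Slamf7, a receptor of activated lymphocytes and macrophages, was near the limit of detection. The controls held 3, 9, 6 and 2 UMIs over time and the A20 cKO libraries 28, 19, 13 and 8, or 0.274 to 1.85 and 3.14 to 6.27 CPM. It did not reach 100 UMIs in any pair of libraries. On A20 cKO day 1, 12 of its 19 UMIs were in 1 cell, and 78.9% of them lay under barcodes seen in more than 1 library.

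In most cases counting error did not separate how often 2 members were found in the same cells from their own shares. At 2000 UMIs per cell, the number of cells with both of 2 members was compared with the product of their shares for 15 pairs, wherever that product was at least 5 cells. For Cd244 with each of 5 other members, the ratio ranged from 0.788 to 1.30 and its interval held 1 in all 35 combinations of pair and library. For the other 10 pairs the interval lay above 1 in 3 of 78 combinations and below 1 in 0. All 3 were in A20 cKO naive: Slamf8 with Ly9 (1.45, 1.09 to 1.88), Slamf8 with Slamf9 (1.21, 1.03 to 1.42) and Cd48 with Slamf9 (1.15, 1.01 to 1.31).

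Other receptors and signalling partners came from a list of 21 genes. Slamf6 was flat, at 63.4 to 76.3 CPM, and Slamf1 had 3.30 to 11.7 CPM. The adaptor SAP (Sh2d1a) had 4 UMIs over all libraries, Sh2d1b2 had 5 and the T and NK cell receptor Cd2 had 3, while EAT-2 (Sh2d1b1) had 247 UMIs, 2.58 to 8.51 CPM. The Src family kinase Lyn (333 to 639 CPM), the phosphatases Ptpn6 (SHP-1, 211 to 367 CPM) and Inpp5d (SHIP1, 322 to 525 CPM) and the effector Vav1 (106 to 175 CPM) were found in every library. The kinase Fyn, which partners SAP in lymphocytes, had 6.17 to 16.5 CPM.

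Counts of list genes past 2-fold are given beside the shares of all genes. Across the split, Fyn was the 1 gene of 16 higher in control day 3 than in control naive (1.35), where 8.76% of all genes were, and the 1 of 18 higher than in control day 2 (1.12), where 13.1% of all genes were. Slamf1 was the 1 gene of 17 lower in A20 cKO day 2 than in control day 2 (-1.10), where 4.66% of all genes were. A single gene of 16 to 18 is near those shares. In control day 1 against naive 0 of 17 tested genes were at least 2-fold higher, where 3.82% of all genes were. The 1 lower was the phospholipase Plcg1 (30.2 to 10.95 CPM, -1.47), where 7.25% of all genes were 2-fold lower. In control day 2 against naive 0 of 17 passed in either direction (5.92% of all genes higher and 6.28% lower), and the median of the list was -0.22. In A20 cKO day 1, 2 and 3 against naive 0 of 16 passed, and the medians were 0.01, -0.04 and -0.04. Of all genes 1.56%, 2.86% and 1.92% were higher there and 1.39%, 2.65% and 2% lower. At such shares few or none of 16 or 17 genes would pass in these comparisons with a naive library. In A20 cKO day 3 against control day 3, 1 of 16 tested genes was higher, the Src family kinase Fgr (26.4 against 12.5 CPM, 1.08). Plcg1 was the 1 lower (11.02 against 23.6 CPM, -1.08). Of all genes 1.86% were 2-fold higher and 2.4% 2-fold lower. The pan-leukocyte phosphatase Ptprc (CD45) stood at 289 to 320 CPM in control naive, day 1 and day 2 and at 524 to 598 CPM in the 5 linked libraries, control day 3 included. Its level therefore followed the library split, and it was not alone in the list. Lyn stood at 333 to 436 CPM in control naive, day 1 and day 2 and at 534 to 639 CPM in the linked libraries. Ptpn6 went the other way, at 288 to 367 CPM against 211 to 256 CPM. How many of all genes follow the split was not counted.

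Of 14 other genes within 100 kb of a member, 5 exceeded 20 CPM in a library. Tagln2, an actin-binding protein gene between Slamf9 and Slamf8, had 42.6, 79.9, 123 and 66.8 CPM over time in the controls. In A20 cKO it had 56.4, 67.0, 104 and 85.8 CPM, and both series were highest on day 2. F11r, an adhesion receptor upstream of Cd244, was highest in control naive at 939 CPM and lowest in A20 cKO day 3 at 513 CPM. B930036N10Rik, an antisense transcript that overlaps Alyref2, so that reads of the pair are uncertain, reached 215 CPM in control day 1 and 3.96 to 36.3 CPM elsewhere. Pigm ranged from 16.1 to 35.7 CPM and Alyref2 from 27.7 to 43.3 CPM. Of the 5, Tagln2 alone shared with Cd244 that both naive libraries lay below all injured ones. The share of all genes with this order was not counted.

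The genes most like each member were those with the highest Pearson correlation of log2 CPM over the 8 libraries, out of 6167 candidates whose mean reached 20 CPM. For Cd244 these included Hells (r = 0.99), Ssrp1 (0.97), Mcm6 (0.97) and Dtl (0.97). Hells, Mcm6 and Dtl are among the core S genes used above, and Ssrp1 is a subunit of the histone chaperone FACT. Without control naive, whose low Cd244 level sets much of the range, r was 0.98, 0.86, 0.90 and 0.77, and within the 5 linked libraries 0.98, 0.89, 0.98 and 0.72. Hells had 1.85, 17.1, 44.4 and 29.2 CPM over time in the controls, with 13.0, 37.6, 41.9 and 29.9 CPM in A20 cKO.

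Slamf8 was most like Lilrb4a (r = 0.99), an inhibitory receptor, and the MHC class I genes H2-D1 (0.99) and H2-Q7 (0.98). Ly9 was most like the chemokine gene Cxcl13 (0.99), the glycosyltransferase gene Galnt7 (0.98) and H2-Q6 (0.98). H2-Q6, H2-Q7 and H2-D1 are closely related genes between which reads may be divided unevenly. Slamf8 and Ly9 correlated with each other at 0.97, whereas Cd244 correlated with them at 0.21 and 0.20. Cd48 was most like Myo1f (0.94), Mcoln1 (0.92) and Dpp7 (0.89), Cd84 like Il13ra1 (0.90), Nfkbie (0.88) and Adrbk2 (0.86), and Slamf9 like Ube2e1 (0.94), Lsm7 (0.93) and Banf1 (0.92), in each case over small ranges of level. These correlations rest on 8 libraries that share the split, depth and genotype, and they carry no test.

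**Figure D5:**
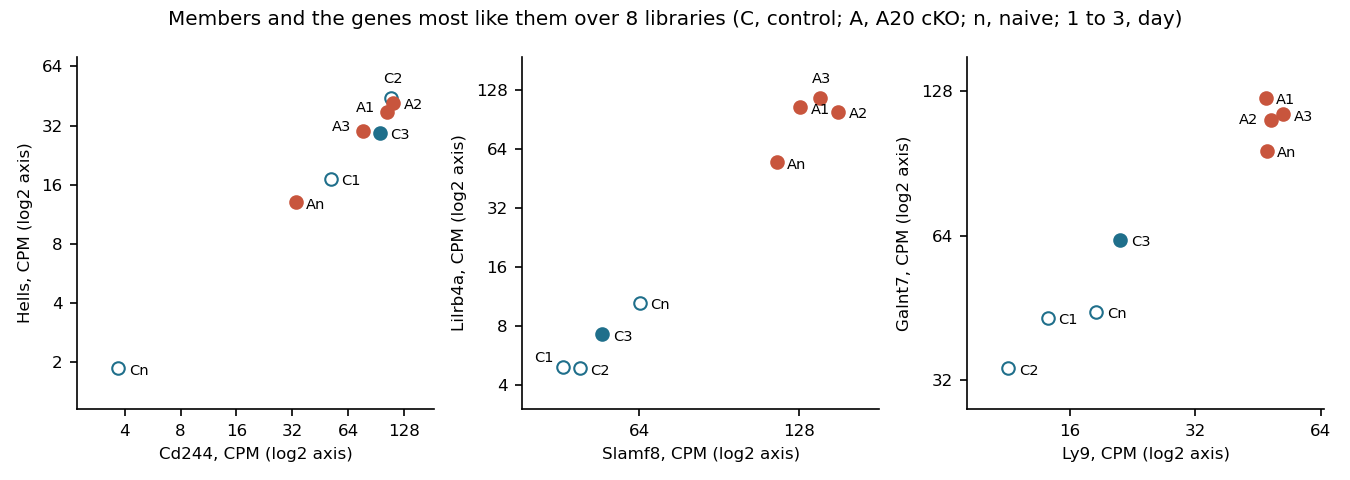
Levels in CPM on log2 axes of Cd244 and Hells, Slamf8 and Lilrb4a, and Ly9 and Galnt7 in the 8 libraries, blue for control and red for A20 cKO, filled for libraries that share barcodes (Galnt7 is drawn in place of Cxcl13, which had 0 CPM in 2 libraries). Cd244 and Hells lie along 1 line from control naive (3.70 and 1.85 CPM) to the day 2 libraries, while Slamf8 and Ly9 fall into a control and an A20 cKO cluster.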

How the data were processed

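Per the labels, YFP-positive cells of lumbar cord were sorted and sequenced with a 10x Genomics 3′ kit. The deposited counts are UMIs per gene and barcode, and the submitters' processing notes name Cell Ranger 2.1.1 and the build mm10. Whether strand was used in counting is not given in the sources used here. The deposited tables pair gene identifiers with symbols. Barcodes with at least 1000 UMIs, 500 genes and at most 10% mitochondrial UMIs were kept, doublets were gated out at the sort per the study's methods, and no doublet caller was run here; cells over 3 times the median depth of their library, 0 to 23 a library, were left out as an alternative. UMIs were summed per library and expressed as CPM, so depth is 1620481 to 15817426 UMIs a library. Log2 ratios had 0.5 UMI added to each sum. The share of all genes past 2-fold was counted among genes with at least 100 UMIs in both libraries together. The study used a negative binomial model between clusters of cells; with 1 library per group no model was fitted here, since cells are not replicates. Shares of cells were given after thinning to 2000 UMIs. The members, gene lists and comparisons were chosen with earlier results of these data known. The genes named are the members, the list of 21 partners, genes within 100 kb over 20 CPM in any library and, by correlation over the libraries, the 5 genes most like Cd244 and the 3 most like each other member with a mean of at least 20 CPM, leaving out mitochondrial, ribosomal, Y-linked and predicted genes; a few genes that this rule or the lists name are not reported here. Ratios and intervals were tested on simulated data. Python 3.11.15, numpy 2.4.6, scipy 1.17.1, pandas 2.3.3 and matplotlib 3.10.9 were used. Alternatives were another scaling, other cell filters, leaving out cells of shared barcodes, deep cells, dividing cells or cells with NK marker UMIs (the last added after seeing the data), other definitions of dividing cells, and other depths and seeds of thinning.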

Additional observations from a re-analysis of the deposited data

Results flagged for a closer look

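For 3 members, the ratio of an injured to a naive library lay above 0 in one genotype and below 0 in the other, each with an interval that did not hold 0. The share of all genes that meet this rule was not counted. The difference between the genotypes was not tested, since each group is 1 library. Cd48 on day 3 had a log2 ratio of -0.57 (-0.75 to -0.38) in control and 0.33 (0.19 to 0.46) in A20 cKO, a difference of 0.90. Slamf9 on day 3 had a log2 ratio of -0.33 (-0.51 to -0.14) in control and 0.38 (0.24 to 0.52) in A20 cKO, a difference of 0.71. Both control ratios compare control day 3 with control naive and so cross the library split, whereas the A20 cKO ratios lie within the linked libraries. Slamf8 on day 2 had a log2 ratio of -0.38 (-0.67 to -0.07) in control, which is -0.26 relative to the median gene, and 0.38 (0.22 to 0.54) in A20 cKO, a difference of 0.76. Both of these ratios lie within 1 set of libraries. The interval of the control ratio held the median gene of that comparison, at -0.12, so its direction relative to the median gene is not separated by counting error.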

How the results depend on the processing

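No paired analysis was possible because each group is 1 library. Of 702 recomputed ratios between libraries (6 members, 13 comparisons, 9 alternatives), 679 stayed inside the counting interval of the value reported, 22 moved outside it and 1 changed sign: Cd84 on day 1 between genotypes was -0.0197 with median-of-ratios size factors. All Cd244 ratios to a naive library kept their direction and stayed past 2-fold under the 9 alternatives, between 3.19 and 5.20 in control and between 1.17 and 1.85 in A20 cKO. Cd244 in control day 3 against day 2 was -0.41 with median-of-ratios size factors, and in A20 cKO day 3 against control day 3 it was -0.0546 as a mean of cell CPM, so the latter difference depends on how cells are weighted. Its day 1 ratio between genotypes was 0.72 with median-of-ratios size factors, no longer past 2-fold. The ratios of Slamf8 and Ly9 in A20 cKO day 3 and A20 cKO naive against control day 3 stayed between 1.00 and 1.47. Of 252 recomputed ratios inside against outside Mki67 or Top2a cells, 231 stayed, 16 moved and 5 changed sign. With the core G2/M class these were Cd244 in control day 3 (-0.0019) and Slamf8 in control day 1 (0.67) and A20 cKO naive (-0.12). With at least 2 UMIs Slamf8 in control day 1 was 0.62, and with thinned cells Slamf8 in A20 cKO naive was -0.0227. Shares of cells moved in 46 of 56 cases without thinning and in 51 of 56 at 1000 UMIs, since fewer UMIs per cell give lower shares, but in 2 of 56 with another seed. Control naive limits the depth most: its 6 Cd244 UMIs leave the size of the first injury ratio uncertain from 2.68 to 5.26. Size factors moved counts of genes past 2-fold by over 1.5 times in 5 of 20 cases. With them the genes higher and lower were 512 and 388 in control day 1 against naive (339 and 643 as reported), 692 and 379 in control day 2 against naive (549 and 583), 839 and 502 in control day 3 against day 2 (1298 and 266), 220 and 130 in A20 cKO day 3 against naive (169 and 176) and 202 and 147 in A20 cKO day 3 against control day 3 (158 and 204). Without the filter on low counts all 20 counts moved, to between 742 and 4192 genes higher (92 to 1298 as reported) and 839 to 3869 lower (124 to 643).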
